A study of Mus musculus with 12 samples.

Results

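The comparison asks which genes of the Sox9 Sublow population departed from an even step between the Sox9 Low and Sox9 Negative populations of the mouse intestinal epithelium. For each gene, the mean of log2(normalised read count + 1) in Sublow was set against the midpoint of the means in Low and Negative, so that a departure of 0 means the geometric middle of both neighbours. The comparison uses the 9 libraries of these 3 populations, of the 12 libraries of the study. All cells came from C57Bl/6 mice whose Sox9-GFP reporter was used to sort epithelial cells by flow cytometry, and no treatment or other genotype is given for any population. Sox9 High, the 4th population, has no weight in the midpoint but shared the estimate of the spread. Each population had 3 libraries, called A, B and C, each from 12000 cells. Age, sex and the number of mice are not in the labels used here, and nothing in them says that replicates came from separate mice, so p-values measure only the spread between these samples.

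The intestinal crypt is the epithelial pocket in which stem cells divide, and Sox9 is one of its transcription factors. Stem cells at the crypt base give rise to rapidly dividing transit-amplifying progenitors, which mature into absorptive enterocytes or into secretory cells: mucus-producing goblet cells, antimicrobial Paneth cells, hormone-producing enteroendocrine cells and chemosensory tuft cells. Earlier studies of mice with this reporter took Low cells for dividing stem cells and Sublow cells for their progenitor offspring. They placed mature epithelium in Negative and hormone-producing and tuft cells in High. A gate defined by 1 reporter can hold several cell types, and in bulk RNA fewer cells of a type and less RNA per cell cannot be told apart.

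The 9 libraries held 11.6 to 17.0 M reads assigned to genes (M, 1e6). Epithelial markers were high in all 9, with Epcam between 13725 and 28985 normalised reads. Marker lists of other cells were low: the T cell list summed to a mean of 704 in Low, 722 in Sublow and 937 in Negative, the myeloid list to 236, 261 and 279, and the endothelial list to 1186, 1253 and 1618, of which Pecam1 alone made 711, 743 and 961. The stroma list summed to 853, 350 and 417, a difference carried by Vim, with means of 625, 46.5 and 11.7, while the collagen gene Col1a1 had means of 13.8, 14.2 and 13.7. The nerve and glia list summed to 501, 263 and 314. All 6 measured members lay below the midpoint, with a median departure of -1.10. Ret, a receptor kinase, was the 1 called (-1.03, limma adjusted p = 0.018, and 0.11 in a fit of the 9 libraries without High). Of all genes, 0.507% were called below. None of the listed markers was at 0 in all 9 libraries, and Cd79a, the defining B cell marker, had means of 3.59, 6.60 and 2.30. The Sublow libraries differed most among themselves, with a median SD per gene of 0.374 on the log2 scale against 0.223 in Low and 0.260 in Negative.

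Sox9 itself lay on the even step. It measured 7655, 5945 and 6204 normalised reads in Low A, B and C, 1955, 1259 and 3039 in Sublow and 703, 383 and 725 in Negative. The 3 populations did not overlap. The departure was 0.00 ± 0.26 on the log2 scale (SE; 95% interval -0.55 to 0.56; limma adjusted p = 0.998), and its Sublow mean stood at 0.499 of the way from Low to Negative on that scale. On the linear scale the Sublow mean was below the midpoint of both neighbours, by a log2 departure of -0.87 (adjusted p = 0.19, limma variance with the delta method). This is the order of values that the sort itself selected, and it checks the labels.

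The positions of the genes that separated Low from Negative centred near the middle. Of 16577 genes tested, 6130 differed between Low and Negative at least 2-fold with a limma adjusted p below 0.05, 2550 higher and 3580 lower in Negative. For 3358 of them (54.8%), the 95% interval of the departure lay within 1 log2 unit on either side of the midpoint, the rule used here for an even step. Where Low and Negative differ by less than 2 log2 units, a Sublow mean at the level of either would also lie within that limit, so for those genes the rule does not tell an even step from no step. Of the 2714 genes that differed by at least 2 log2 units, a limit chosen after the values were seen, 766 (28.2%) met it. The median position of Sublow between Low (0) and Negative (1) was 0.506 over the 6130 genes, and 4483 of them (73.1%) had a position between 0.25 and 0.75. It was 0.552 for genes that rose from Low to Negative and 0.413 for those that fell. Rising genes were the more uniform: 29.96% lay between positions 0.25 and 0.5 and 62.1% between 0.5 and 0.75, whereas falling genes were spread out, with 19.8% between 0 and 0.25 and 10.7% between 0.75 and 1.

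**Figure D1:**
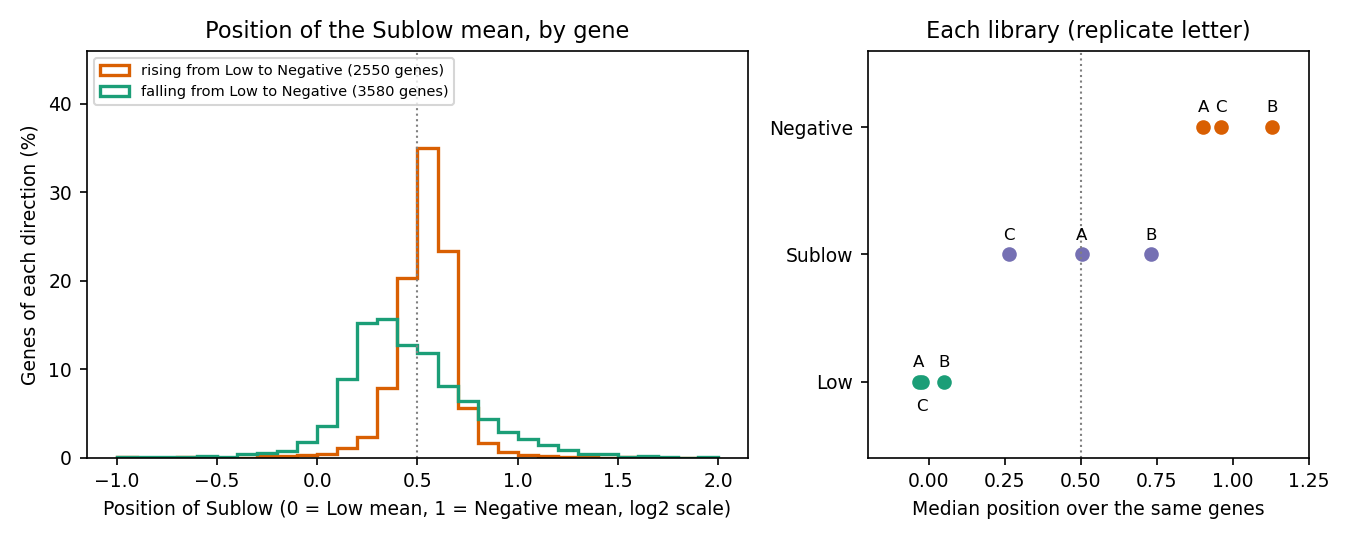
Left, the position of the Sublow mean between the Low mean (0) and the Negative mean (1) on the log2 scale (horizontal axis) against the percent of genes of each direction (vertical axis), for 2550 rising and 3580 falling genes. Right, the median position of each of the 9 libraries over the same genes: Sublow A at 0.505, B at 0.733 and C at 0.264, so that the 3 Sublow libraries spread over more of the axis than those of either neighbour.

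The position of the population is a mean over libraries that disagreed. Sublow A lay at 0.505, Sublow B at 0.733, nearer Negative, and Sublow C at 0.264, nearer Low. The 3 Low libraries lay between -0.033 and 0.052 and the 3 Negative libraries between 0.904 and 1.129. Without Sublow B the median position was 0.388, and without Sublow C it was 0.619. The median departure in each Sublow library is given below for most of the groups described.

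Among the even-step genes, the 5 with the largest rise from Low to Negative included 2 genes of xenobiotic handling, Gstk1, a glutathione transferase, and Abcc2, an apical efflux pump for conjugated compounds, and also Cdr2, Als2cr12 and Pla2g12b, a secreted phospholipase-like protein. Pla2g12b measured 135, 110 and 65.0 in Low, 450, 698 and 312 in Sublow and 1218, 1235 and 1127 in Negative. The groups did not overlap, and the departure was 0.42 (95% interval -0.13 to 0.98). The 5 with the largest fall were Stxbp5l, Phldb2, Stox2, Kcnh6 and Prox1. On the linear scale Stxbp5l (-1.85, adjusted p = 0.027, limma variance with the delta method), Phldb2 (-1.47, 0.024) and Stox2 (-1.81, 0.013) were called below the midpoint. Kcnh6 (-1.39, 0.22) and Prox1 (-1.23, 0.075) were not. All 5 linear departures were beyond the limit of 1 log2 unit, so the even step of these falling genes holds on the log scale only. Prox1, a homeodomain transcription factor present in enteroendocrine and tuft cells, measured 778, 653 and 662 in Low, 142, 103 and 248 in Sublow and 23.2, 41.5 and 17.1 in Negative. These groups were likewise separate, and the departure was 0.19 (95% interval -0.42 to 0.79). Over these 10 genes, positions ran from 0.461 for Prox1 to 0.618 for Pla2g12b. Without Sublow B the departure moved by more than the gene's SD between libraries in the fit for Gstk1 (to -0.18) and Stox2 (0.19). Without Sublow C it did so for Abcc2 (to 0.65), Cdr2 (0.77) and Phldb2 (-0.31).

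Sublow departed from the midpoint for 135 genes (0.814% of those tested; limma adjusted p below 0.05), 51 above (0.308%) and 84 below (0.507%). At an unadjusted p below 0.05 there were 1828. The median departure over all genes was 0.01, and 94.0% of genes lay within 2-fold of the midpoint. Both sets consisted mainly of genes that fall from Low to Negative. Of the 51 above, 41 fell from Low to Negative at least 2-fold, 4 rose and 6 did neither, and all 41 that fell had Sublow at a position of 0.25 or less, near the Low level or above it. Of the 84 below, 75 fell, 2 rose and 7 did neither. All 75 had a position of 0.75 or more, near the Negative level or below it. Sox9 High had the highest mean of the 4 populations for 79 of the 84 genes below and for 16 of the 51 above, against 35.7% of all genes. A gene could enter the test only because of its High libraries, as Rab11fip5, Enpp2 and Tnxb among the genes below did. Part of these counts, and of the share over all genes, is therefore set by the filter. High also shared the estimate of the spread behind the calls.

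The number of calls depended on the libraries in the fit. The fit of the 9 libraries alone, without the spread of High, called 3 genes above and 17 below, among them Bace2, Kcnk6, Bmx, Map1a, Pik3r5, Plcg2 and Spib. Without Low B 89 genes were above, and without Low A 10. The genes below numbered 30 without Low A and 34, 50 and 36 without High A, B and C. In all 12 fits that left out 1 library, 5 of the 51 and 27 of the 84 kept their call. When the values were scaled to the same total the calls were 20 above and 65 below, with quantile scaling 33 and 96, and with edgeR and its TMM scaling 87 and 64, so the share above ranged from 23.5% to 57.6% against 37.8% in the reported fit. The median departure of all genes stayed between 0.00 and 0.07 under these scalings.

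**Figure D2:**
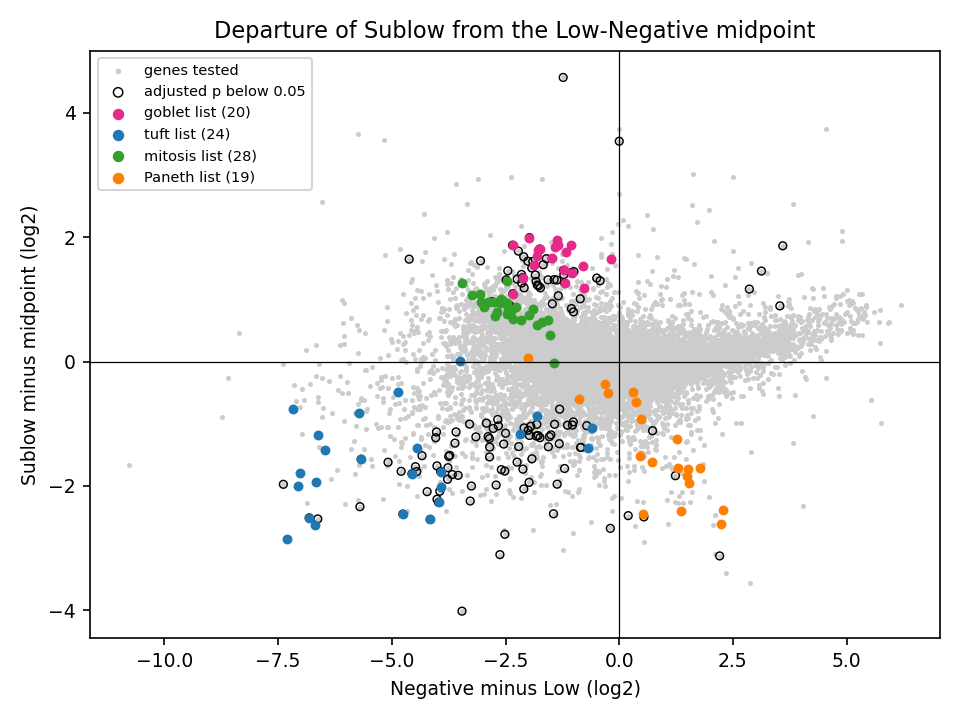
Each point is a gene, with the log2 difference of Negative minus Low on the horizontal axis and the log2 departure of Sublow from the midpoint on the vertical axis. Grey points are all 16577 genes, open circles the 135 called, and coloured points members of gene lists: goblet genes lie above 0 and tuft genes, apart from Sox9, below it, mostly on the left side where Low exceeds Negative.

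Genes of goblet cells stood above the midpoint together. All 20 measured members of the goblet list lay above it, in each of the 3 Sublow libraries, which was the case for 14.2% of all genes. The median departure was 1.68 (1.02, 1.64 and 2.16 in Sublow A, B and C), against 0.01 over all genes. The test was passed above the midpoint by 8 of 20, against 0.308% of all genes: Bcas1, Agr2, Muc2, Klk1, Ccl9, Spink4, Galnt12 and Slc12a8. Of the 10 largest departures above the midpoint by the naming rule, 4 were in this list (Bcas1, Agr2, Muc2, Klk1). The others were Bace2, Ano7, Sytl2, Pde2a, Creb3l1 and Galnt5.

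Muc2, the gel-forming mucin that makes up intestinal mucus, measured 52007, 144626 and 50862 in Low A, B and C, 107602, 164377 and 151048 in Sublow and 23836, 14602 and 28845 in Negative. All 3 Sublow libraries were above all 3 Negative libraries, while Low B exceeded Sublow A. The departure was 1.81 ± 0.33 (SE, a 3.51-fold difference from the midpoint; adjusted p = 0.032, limma). Against Low alone Muc2 was higher by 0.93 without passing (limma adjusted p = 0.097), and against Negative it was higher by 2.69 and passed (limma adjusted p = 0.0017).

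Agr2, a disulfide isomerase of the endoplasmic reticulum needed for mucin production, measured 3651, 6037 and 4870 in Low, 5351, 6078 and 14123 in Sublow and 1441, 520 and 1085 in Negative. Sublow C was the highest library, and Low B exceeded Sublow A. The departure was 1.87 ± 0.35 (adjusted p = 0.035, limma). Bcas1 had the largest departure of the named genes above the midpoint, 1.99 ± 0.41 (adjusted p = 0.047, limma), with 658, 1708 and 635 in Low, 1250, 1806 and 2571 in Sublow and 280, 137 and 304 in Negative. Here too Low B overlapped Sublow. Agr2 lost its call in 7 of the 12 fits that left out 1 library (largest adjusted p 0.10) and Bcas1 in 10 (0.14).

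Goblet members with high levels that missed the threshold were Fcgbp, the IgG Fc binding protein of mucus (1.88, limma adjusted p = 0.056), Clca1 (1.80, 0.057), Tff3, the trefoil peptide (1.85, 0.077), and Zg16, a lectin of the mucus layer (1.88, 0.14). Summed over the list, the normalised reads were 151263, 502557 and 177544 in Low A, B and C, 354715, 583994 and 621861 in Sublow and 97923, 54342 and 114765 in Negative. Low B therefore lay between Sublow A and Sublow B, far above Low A and Low C. Without Low B 18 of the 20 passed, and without Low A, Sublow B or Sublow C none did. With edgeR and DESeq2 13 and 19 passed, and with same-total scaling 2. In the fit of 9 libraries none passed (limma adjusted p = 0.12 for Muc2). Muc2 lost its call without Low A (limma adjusted p = 0.081), Low C (0.071), Sublow B (0.083), Sublow C (0.095) or any 1 of the High libraries (0.056 to 0.059). Against the linear midpoint, 5 of the 20 passed (0.193% of all genes), Muc2 among them (1.56, adjusted p = 0.040).

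The secretory side of this pattern included transcription factors. Atoh1, the factor that commits crypt cells to the secretory lineage, measured 366, 462 and 297 in Low, 495, 510 and 896 in Sublow and 134, 84.6 and 135 in Negative. Its 3 Sublow libraries were above every library of both neighbours. The departure was 1.56 ± 0.25 (adjusted p = 0.018, limma), and against Low alone it was higher by 0.72 without passing (limma adjusted p = 0.091). Creb3l1 and Creb3l4, membrane-bound factors of the secretory pathway, departed by 1.61 (limma adjusted p = 0.020) and 1.19 (0.045). Spdef, a factor of goblet and Paneth maturation, had a departure of 1.55 (0.051), and Gfi1, which acts downstream of Atoh1, one of 1.56 (0.38). Of 18 secretory fate factors, 3 passed above the midpoint (0.308% of all genes did) and 1 below it (0.507%), Gfi1b, a tuft cell factor. Their median departure was 0.59 (0.32, 0.46 and 1.06 in Sublow A, B and C). Gfi1b had 1.02, 0 and 0.88 normalised reads in Sublow and 0, 0 and 3.42 in Negative, values near the floor of 3 reads, so its departure depends on the pseudocount (-2.70 at 0.5 and -1.60 at 5), and edgeR did not call it (adjusted p = 0.21). Atoh1 lost its call without Low A (limma adjusted p = 0.053) or Sublow C (0.051), and Creb3l1 without the same 2 libraries. Both also missed the threshold in the fit of 9 libraries (limma adjusted p = 0.053 for Atoh1 and 0.084 for Creb3l1). Creb3l4 lost its call in 10 of the 12 fits that left out 1 library (largest adjusted p 0.13), with quantile scaling (0.062) and in the fit of 9 libraries (0.11).

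Other called genes above the midpoint, chosen after their values were seen, were Txndc5, Dnajc10 and Qsox1, which form or reduce disulfide bonds. They departed by 1.32, 1.06 and 0.85 (limma adjusted p = 0.037, 0.047 and 0.047) and held in 4, 2 and 2 of the 12 fits that left out 1 library. Galnt5, which starts O-linked glycosylation of mucins, measured 346, 513 and 331 in Low, 483, 550 and 876 in Sublow and 103, 66.1 and 161 in Negative, a departure of 1.61 ± 0.27 (adjusted p = 0.023, limma). Its call was lost in 3 of the 12 fits that left out 1 library (largest adjusted p 0.077). Bace2, a transmembrane protease, measured 216, 362 and 220 in Low, 284, 411 and 591 in Sublow and 59.1, 43.1 and 63.9 in Negative. Low B overlapped the Sublow libraries. Its departure of 1.78 ± 0.26 (adjusted p = 0.012, limma) passed in all 12 fits that left out 1 library and in the fit of 9 libraries. Of the general stress response of the endoplasmic reticulum, the unfolded protein response, none of the 23 measured genes passed in the limma fit. Their median departure was 0.23 (0.20, 0.13 and 0.54 in Sublow A, B and C), with Hspa5, the main chaperone, at 0.29 and the goblet-cell sensor Ern2 at 1.64 (limma adjusted p = 0.068).

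Of the 10 named genes above the midpoint, Pde2a, a cyclic nucleotide phosphodiesterase, was the 1 that had a lower mean in Sublow than in Low. It measured 393, 518 and 576 in Low, 288, 295 and 347 in Sublow and 27.5, 21.5 and 11.4 in Negative. The 3 populations did not overlap. Most of its fall came between Sublow and Negative, at position 0.143, and the departure was 1.65 ± 0.23 (adjusted p = 0.0088, limma). On the linear scale Sublow was close to the midpoint (log2 departure 0.28, adjusted p = 0.77), so this call rests on the log scale.

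**Figure D3:**
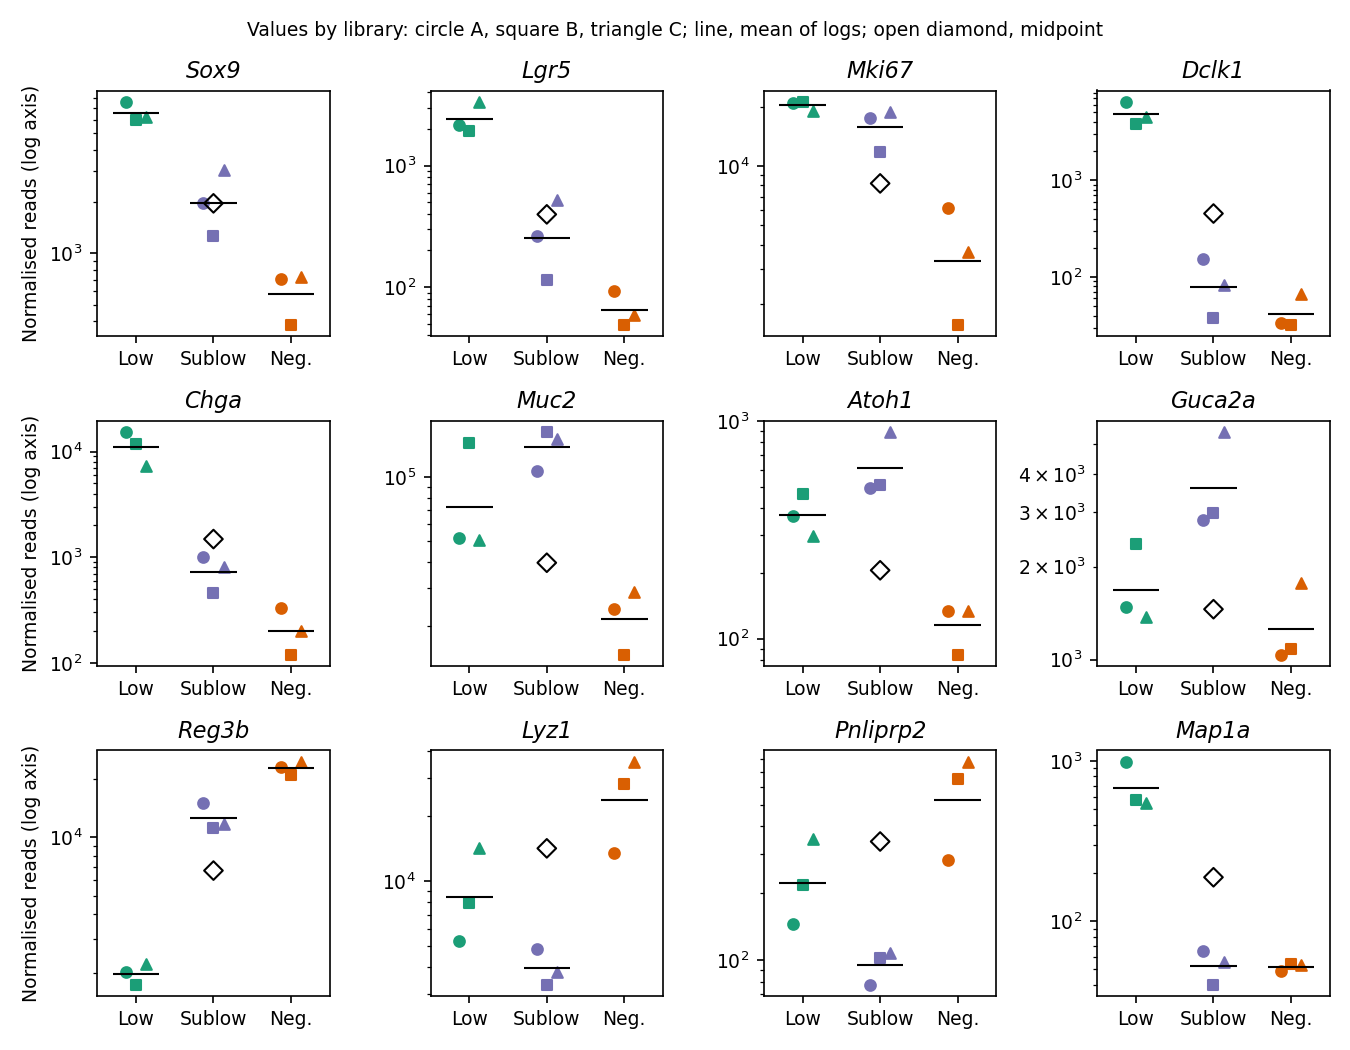
Normalised reads on a log axis for single genes in Low, Sublow and Negative; circles, squares and triangles are libraries A, B and C, lines are means of the log2 values and open diamonds the midpoint of Low and Negative. Muc2, Atoh1, Guca2a and Reg3b have Sublow means above the diamond, Dclk1, Map1a, Lyz1 and Pnliprp2 have them below it, and Sox9 lies on it.

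Tuft cell genes showed the opposite departure. Of 24 measured members of the tuft list, 23 lay below the midpoint, 21 of them in all 3 Sublow libraries (14.4% of all genes did). The test was passed below the midpoint by 7, against 0.507% of all genes: Bmx, Dclk1, Gfi1b, Alox5, Spib, Fyb and Ptgs1. The median departure was -1.67 and the median position 0.840, so Sublow was nearer Negative than Low. The exception was Sox9, at 0.00. The call of Gfi1b rests on values near the floor, as given above. Without Low A, Low C, High A or High C 4 members passed, and in the fit of 9 libraries 2. The summed list measured 38493, 24785 and 28275 in Low, 3352, 1856 and 4573 in Sublow and 1286, 844 and 1445 in Negative.

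Dclk1, a kinase used as the standard marker of tuft cells, measured 6470, 3802 and 4530 in Low, 154, 38.0 and 81.7 in Sublow and 33.8, 32.3 and 66.2 in Negative. Sublow lay far below Low and overlapped Negative. The departure was -2.51 ± 0.36 (5.71-fold below the midpoint; adjusted p = 0.0097, limma), at position 0.869. Bmx, a tyrosine kinase, measured 522, 277 and 439 in Low, 19.4, 8.94 and 20.2 in Sublow and 15.8, 18.5 and 33.1 in Negative. Sublow was thus at the Negative level, with a departure of -2.54 ± 0.30 (adjusted p = 0.0032, limma). Both calls held in all 12 fits that left out 1 library (in the fit of 9 libraries only that of Bmx), and both genes lay further below the linear midpoint (-4.93 for Dclk1 and -3.70 for Bmx).

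Not all tuft genes had reached the Negative level. Trpm5, the cation channel of taste transduction, measured 4064, 2399 and 2166 in Low, 173, 70.4 and 149 in Sublow and 25.3, 16.9 and 45.6 in Negative, with no overlap. Its departure was -1.18 (limma adjusted p = 0.15), and Sublow was above Negative by 2.13 (limma adjusted p = 0.0038). Pou2f3, the factor that specifies tuft cells, had a departure of -0.82 (limma adjusted p = 0.24) and was also higher in Sublow than in Negative, by 2.04 (limma adjusted p = 0.0021). Of the list, 8 members were higher in Sublow than in Negative at an adjusted p below 0.05, against 15.1% of all genes.

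The 10 largest departures below the midpoint by the naming rule also held Inpp5d, Pik3r5, Dgki, Alox5, Adcy5, Map1a, Pygl and Pnliprp2. Inpp5d, a lipid phosphatase, measured 1216, 580 and 708 in Low, 31.7, 20.1 and 14.1 in Sublow and 19.0, 7.69 and 19.4 in Negative, and departed by -2.33 ± 0.32 (adjusted p = 0.0081, limma). Pik3r5, a regulatory subunit of PI3-kinase gamma, departed by -2.09 (limma adjusted p = 0.0056) and Dgki, a diacylglycerol kinase, by -2.53 (0.049). Alox5, the lipoxygenase that starts leukotriene synthesis, departed by -2.27 (0.023), and Adcy5, an adenylyl cyclase, by -1.83 (0.0050). For Pik3r5, Alox5 and Adcy5 the Sublow and Negative means differed by less than 0.3 on the log2 scale. Map1a, a microtubule-associated protein, measured 990, 569 and 543 in Low, 65.3, 40.2 and 55.4 in Sublow and 48.6, 53.8 and 53.6 in Negative, and its departure of -1.82 ± 0.20 (adjusted p = 0.0024, limma) held in every fit that left out 1 library. Pygl, the liver-type glycogen phosphorylase, departed by -1.97 (0.046) and was still higher in Sublow than in Negative (by 1.72, limma adjusted p = 0.019). Dgki and Pygl were the least firm of these, losing the call in 10 and 9 of the 12 fits.

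Several of these genes are also used by leukocytes, among them Inpp5d, Fyb, Plcg2, Runx1, Spib and Alox5. Fyb, an adaptor protein of immune cells, measured 2856, 1737 and 1750 in Low, 173, 82.7 and 254 in Sublow and 142, 112 and 152 in Negative. The pan-leukocyte marker Ptprc measured 92.6, 60.8 and 114 in Low, 53.1, 52.5 and 53.6 in Sublow and 77.1, 80.0 and 82.2 in Negative, and the T cell receptor subunit Cd3e had means of 8.31, 13.7 and 16.2. Ptprc was lower in each Sublow library than in every library of the neighbours, with a departure of -0.63 (limma adjusted p = 0.26), against -1.77 for Fyb. The nerve and glia list, given above, lay below the midpoint as well. The part of leukocytes or nerve cells in the tuft list values was not tested.

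Enteroendocrine genes were lower in Sublow than in Low for 26 of 27 measured members (limma adjusted p below 0.05; 10.7% of all genes), but their position varied with the library. Of the 27 measured members, 24 lay below the midpoint, with a median departure of -0.61 and a median position of 0.599. Pax6 and Tph1 passed below the midpoint, against 0.507% of all genes. Pax6, a transcription factor of hormone-producing cells, measured 953, 784 and 752 in Low, 281, 161 and 186 in Sublow and 224, 185 and 235 in Negative. Sublow overlapped Negative, and the departure was -1.04 ± 0.17 (adjusted p = 0.018, limma). Tph1, the enzyme of serotonin synthesis in enterochromaffin cells, measured 1049, 949 and 821 in Low, 125, 88.3 and 105 in Sublow and 75.0, 33.8 and 71.9 in Negative, a departure of -1.13 ± 0.22 (adjusted p = 0.042, limma). Its call held in 1 of the 12 fits that left out 1 library, that of Pax6 in 9.

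Of the granins of hormone granules, neither Chga nor Chgb passed against the midpoint. Chga measured 15475, 11903 and 7349 in Low, 1009, 456 and 816 in Sublow and 329, 120 and 200 in Negative, a departure of -1.04 ± 0.34 (adjusted p = 0.24, limma). Chgb, at 4462, 1169 and 4189 in Sublow, had a departure of -0.04 with a wide error (± 0.69, adjusted p = 0.99, limma). The difference between Chga and Chgb was not tested. The list's median departure was -0.02 in Sublow A, -1.41 in Sublow B and 0.12 in Sublow C. In the tuft list all 3 libraries were low, at -1.14, -2.41 and -1.13. The difference between both lists was not tested. Against the linear midpoint 17 of 27 enteroendocrine and 20 of 24 tuft genes were below with an adjusted p under 0.05, where 2.01% of all genes were.

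Paneth cell genes had lower summed levels in Sublow than in either neighbour, but none of the list passed against the midpoint in the reported fit. Without High B 3 passed below it and with DESeq2 2, and the fit of 9 libraries called 2 alpha-defensins outside the list, Defa3 (-2.28) and Defa31 (-3.10). Against Negative 8 of 19 were lower (12.7% of all genes) and against Low 2 (10.7%). The reported fit did call Gm14851 below the midpoint (-3.13, adjusted p = 0.047, limma), a predicted gene outside the list that the naming rule skips. Its means were 817, 162 and 3307 in Low, Sublow and Negative, the order of the list's sums. That call held in 3 of the 12 fits that left out 1 library. The list summed to 23629, 35820 and 60226 in Low, 23923, 15859 and 20233 in Sublow and 55441, 120548 and 150900 in Negative. Of 19 measured members, 18 lay below the midpoint, 15 of them in all 3 Sublow libraries (14.4% of all genes did), with a median departure of -1.61 (-1.10, -1.69 and -1.49 in Sublow A, B and C). Lyz1, Paneth cell lysozyme, measured 5296, 7920 and 14304 in Low, 4873, 3328 and 3792 in Sublow and 13454, 28211 and 35685 in Negative. Sublow lay below every library of both neighbours, and the departure of -1.84 ± 0.65 did not pass (adjusted p = 0.29, limma). Without High B, which has no weight in the midpoint, it did (limma adjusted p = 0.048); in the other fits that left out 1 library its adjusted p was between 0.21 and 0.47. The alpha-defensins are near-identical copies whose reads can be split between genes, so single members are uncertain. Wnt3, the Wnt ligand that Paneth cells supply to stem cells, was the member not below the midpoint (0.05).

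Genes of stem cells were centred on the log-scale midpoint. Of 24 measured members, 11 lay above and 13 below the midpoint, the median departure was -0.0022 and the median position 0.484. Of the 22 that fell from Low to Negative at least 2-fold, 20 had a position between 0.25 and 0.75 and 11 met the interval rule for an even step. On the linear scale the list's median was -0.63, with 3 members called below, where 2.01% of all genes were. Only Nkd1, a feedback inhibitor of Wnt signalling, was called in the reported fit, against 0.507% of all genes called below the midpoint. It measured 242, 204 and 216 in Low, 45.9, 32.4 and 45.7 in Sublow and 33.8, 29.2 and 55.9 in Negative. Sublow had reached the Negative level, a departure of -1.15 ± 0.22 (adjusted p = 0.035, limma) that held in 4 of the 12 fits that left out 1 library.

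Lgr5, the R-spondin receptor that marks cycling stem cells, measured 2150, 1923 and 3354 in Low, 264, 115 and 519 in Sublow and 92.9, 49.2 and 59.3 in Negative. The groups were separate, with a departure of -0.66 ± 0.38 (adjusted p = 0.60, limma). It was -0.10 without Sublow B and -1.18 without Sublow C, and against the linear midpoint Lgr5 was called below (-2.29, adjusted p = 0.017). Olfm4, a secreted glycoprotein of the crypt base, lay on the other side at 0.69 ± 0.74 (adjusted p = 0.82, limma), with 13101, 5432 and 28492 in Sublow. Msi1, an RNA-binding protein, and Znrf3, a ubiquitin ligase that removes Wnt receptors, were both within 0.01 of the midpoint. The list's median departure was 0.02 in Sublow A, -0.49 in B and 0.52 in C, in the order of the libraries' own positions.

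Genes of cell division were nearer their Low than their Negative level. In the mitosis list, 27 of 28 members lay above the midpoint, and 27 of 28 did so in all 3 Sublow libraries (14.2% of all genes did). The median departure was 0.86 and the median position 0.152. No single member passed in the reported fit, in which the lowest adjusted p was that of Plk1 (0.056, limma). Plk1 passed with edgeR (adjusted p = 0.040), DESeq2 (0.00084), a pseudocount of 5 and library weights, and without Negative A (0.026). In the DNA replication list, 27 of 28 lay above, 14 of them in all 3 libraries, with a median departure of 0.61 and a median position of 0.225. The list of ribosome biogenesis had all 30 members above the midpoint, 8 of them in all 3 libraries, with a median of 0.48 and a position of 0.248, but its median was 0.36, -0.09 and 1.13 in Sublow A, B and C, on the other side in B.

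Plk1, a kinase that drives mitosis, measured 964, 1090 and 828 in Low, 949, 841 and 1270 in Sublow and 272, 101 and 186 in Negative. Sublow overlapped Low and was above every Negative library, with a departure of 1.30 ± 0.28 (95% interval 0.69 to 1.91). Mki67, the proliferation marker, measured 20750, 21201 and 18958 in Low, 17530, 11832 and 18764 in Sublow and 6131, 1572 and 3679 in Negative. It departed by 0.95 ± 0.35 (adjusted p = 0.31, limma) and was higher in Sublow than in Negative by 2.26 (limma adjusted p = 0.0042). Against Negative, 27 of the 28 mitosis genes and 25 of the 28 replication genes were higher in Sublow with an adjusted p below 0.05 (15.1% of all genes), and against Low 1 gene of each list was lower (10.7% of all genes). The median departure of the mitosis list was 0.82, 0.44 and 1.33 in Sublow A, B and C, and that of the replication list 0.63, -0.0026 and 1.31. Sublow C, the library nearest Low, had the highest value and Sublow B the lowest. With the linear midpoint the medians were 0.38 and 0.17.

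The promoters of these groups are shown because their members stood on the same side of the midpoint together. In the RefSeq table (GRCm38.p6), 11675 of the 16577 genes had a promoter of 300 bases, from 250 before to 50 after the annotated start, among them 24 of the 28 mitosis and 24 of the 28 replication genes. Cell-cycle genes are known to carry CCAAT boxes, the cell-cycle homology region (CHR) and E2F sites. On either strand, CCAAT was found in 79.2% of mitosis, 62.5% of replication and 38.6% of all promoters. The CHR letters TTTGAA or TTCGAA were found in 75.0%, 20.8% and 14.3%, and the E2F letters TTTGGCG or TTTCCCG in 8.33%, 45.8% and 7.63%. The mitosis and replication lists were written as cell-cycle genes, so these shares describe the lists and not the Sublow values. Below are the members with a promoter in the table that had the largest departures once genes of 1 chromosome were left out. Where a gene had more than 1 start, the first listed was used. The members shown are Plk1 (chr7:122159185-122159484, plus strand) and Bub1 (chr2:127831810-127832109, minus strand), a spindle checkpoint kinase, from the mitosis list, and Mcm3 (chr1:20820263-20820562, minus strand), a subunit of the replicative helicase. Capitals mark CCAAT and CHR letters in Plk1 and Bub1 and CCAAT and E2F letters in Mcm3, on either strand.
Plk1: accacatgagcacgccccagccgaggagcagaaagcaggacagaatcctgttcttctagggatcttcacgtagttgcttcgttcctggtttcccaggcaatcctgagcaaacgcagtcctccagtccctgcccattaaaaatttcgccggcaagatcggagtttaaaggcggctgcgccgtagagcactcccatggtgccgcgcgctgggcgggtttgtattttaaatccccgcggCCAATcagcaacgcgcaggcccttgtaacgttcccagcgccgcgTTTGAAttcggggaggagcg
Bub1: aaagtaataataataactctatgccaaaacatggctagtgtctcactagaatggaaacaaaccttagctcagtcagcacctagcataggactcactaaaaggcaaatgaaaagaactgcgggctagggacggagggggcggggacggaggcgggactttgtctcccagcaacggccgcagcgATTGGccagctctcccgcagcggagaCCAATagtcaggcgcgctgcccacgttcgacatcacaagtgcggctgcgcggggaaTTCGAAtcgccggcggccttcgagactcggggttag
Mcm3: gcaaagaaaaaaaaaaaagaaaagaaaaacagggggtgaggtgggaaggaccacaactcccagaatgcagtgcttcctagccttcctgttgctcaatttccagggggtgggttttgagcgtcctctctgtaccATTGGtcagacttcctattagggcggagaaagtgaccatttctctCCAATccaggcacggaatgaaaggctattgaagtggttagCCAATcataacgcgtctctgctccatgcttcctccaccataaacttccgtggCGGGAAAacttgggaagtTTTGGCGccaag
Plk1 has 1 CCAAT and 1 CHR match, Bub1 has 2 and 1, and Mcm3 has 3 CCAAT and 2 E2F matches. Bub1 measured 496, 397 and 529 in Low, 379, 236 and 440 in Sublow and 84.5, 12.3 and 69.6 in Negative, a departure of 1.26 ± 0.49 (adjusted p = 0.35, limma). Mcm3 measured 2228, 1730 and 1586 in Low, 1535, 795 and 2118 in Sublow and 468, 89.2 and 196 in Negative, a departure of 1.17 ± 0.47 (adjusted p = 0.37, limma). For both genes Sublow overlapped Low and not Negative.

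Among regulators of the cell cycle, E2f2 was called above both neighbours but not against the midpoint. Of 22 measured G1 cyclins and inhibitors, 1 was called against the midpoint, Cdkn1c, below it (0.507% of all genes were). E2f2, a transcription factor of S phase entry, was above both neighbours, with 585, 652 and 391 in Low, 1073, 874 and 990 in Sublow and 780, 574 and 500 in Negative. Its excess was 0.88 over Low (limma adjusted p = 0.011) and 0.68 over Negative (limma adjusted p = 0.033), and the Sublow libraries did not overlap the others. The departure of E2f2 from the midpoint was 0.78 (limma adjusted p = 0.081). Cdkn1c, an inhibitor of cyclin-dependent kinases, measured 388, 262 and 284 in Low, 79.6, 66.0 and 65.9 in Sublow and 75.0, 129 and 65.0 in Negative, a departure of -1.20 ± 0.22 (adjusted p = 0.034, limma). Its mean in Sox9 High was 2279. The E2f2 call was lost without Sublow A, Sublow C, Negative B or Negative C (largest adjusted p 0.11), and that of Cdkn1c in 8 of the 12 fits, in which its adjusted p reached 0.097. In the fit of 9 libraries both calls were lost, and with same-total scaling that of E2f2.

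Absorptive genes, which rise from Low to Negative, were a little nearer Negative on the log scale. Of 20 brush border hydrolases, 18 lay above the midpoint, with none called, a median departure of 0.68 and a median position of 0.659. Sis, the sucrase-isomaltase of the brush border, measured 4679, 10405 and 5873 in Low, 42590, 89387 and 21066 in Sublow and 107551, 164380 and 166459 in Negative. The 3 populations were separate, with a departure of 0.49 ± 0.38 (adjusted p = 0.73, limma). The median departure of the hydrolases was 1.02 in Sublow A, 1.73 in B and -0.45 in C, so the libraries did not share a direction. Against the linear midpoint the list's median was -0.56, on the other side. Lipid absorption (median departure 0.43; 0.58, 1.50 and -0.75 in A, B and C), sugar and peptide transporters (0.37) and microvillus genes (0.20) had the same split, with medians of -0.68, -0.65 and -0.38 on the linear scale.

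Genes of mitochondrial respiration lay near the middle of a small rise. The 13 genes of the mitochondrial genome were higher in Negative than in Low by a median of 1.14 on the log2 scale, too little for the interval rule to tell an even step from none. Their positions ran from 0.379 to 0.582, with a median departure of -0.06 (-0.34, 0.26 and -0.02 in Sublow A, B and C). Of the 25 nuclear genes of oxidative phosphorylation, 20 differed at least 2-fold, by a median over the list of 1.45, and these had positions from 0.466 to 0.678, with a list median departure of 0.12 (-0.03, 0.26 and 0.15).

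A few genes of the enterocyte side had already reached the Negative level in Sublow. Car4, a membrane carbonic anhydrase, measured 109, 151 and 143 in Low, 777, 748 and 914 in Sublow and 875, 772 and 1362 in Negative. Sublow overlapped Negative and was at position 0.908, a departure of 1.17 ± 0.18 (adjusted p = 0.016, limma) that held in all 12 fits that left out 1 library. Tmigd1, an adhesion protein of the brush border, departed by 1.46 (limma adjusted p = 0.048) at position 0.966. Fgf15, the hormone that ileal enterocytes release in response to bile acids, measured 8.71, 9.42 and 6.34 in Low, 182, 113 and 71.2 in Sublow and 101, 83.0 and 152 in Negative, a departure of 1.86 ± 0.37 (adjusted p = 0.046, limma). These 3 were chosen after their values were seen. None was called against the linear midpoint (0.55, 0.74 and 0.95, the smallest adjusted p being 0.25), and Tmigd1 and Fgf15 held in 2 and 3 of the 12 fits that left out 1 library. In the fit of 9 libraries none of the 3 passed (limma adjusted p = 0.067, 0.13 and 0.083 for Car4, Tmigd1 and Fgf15).

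Antimicrobial genes, most of which rise towards Negative, were nearer the Negative level as well. All 12 measured members lay above the midpoint, with a median departure of 0.79 and a median position of 0.754, and the list's median was above it in each Sublow library (1.12, 0.63 and 0.52). Reg3b, a bactericidal lectin, was the 1 member called, against 0.308% of all genes called above the midpoint. It measured 2023, 1740 and 2211 in Low, 15066, 11179 and 11698 in Sublow and 23217, 21073 and 24602 in Negative. The groups were separate, and the departure was 0.90 ± 0.15 (adjusted p = 0.018, limma). Its relative Reg3g departed by 0.81 (limma adjusted p = 0.14). The Reg genes are close copies whose reads could be split in counting. The call was lost in 2 of the 12 fits that left out 1 library (largest adjusted p 0.058). On the linear scale Reg3b lay on the midpoint, at 0.01 (adjusted p = 0.99).

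**Figure D4:**
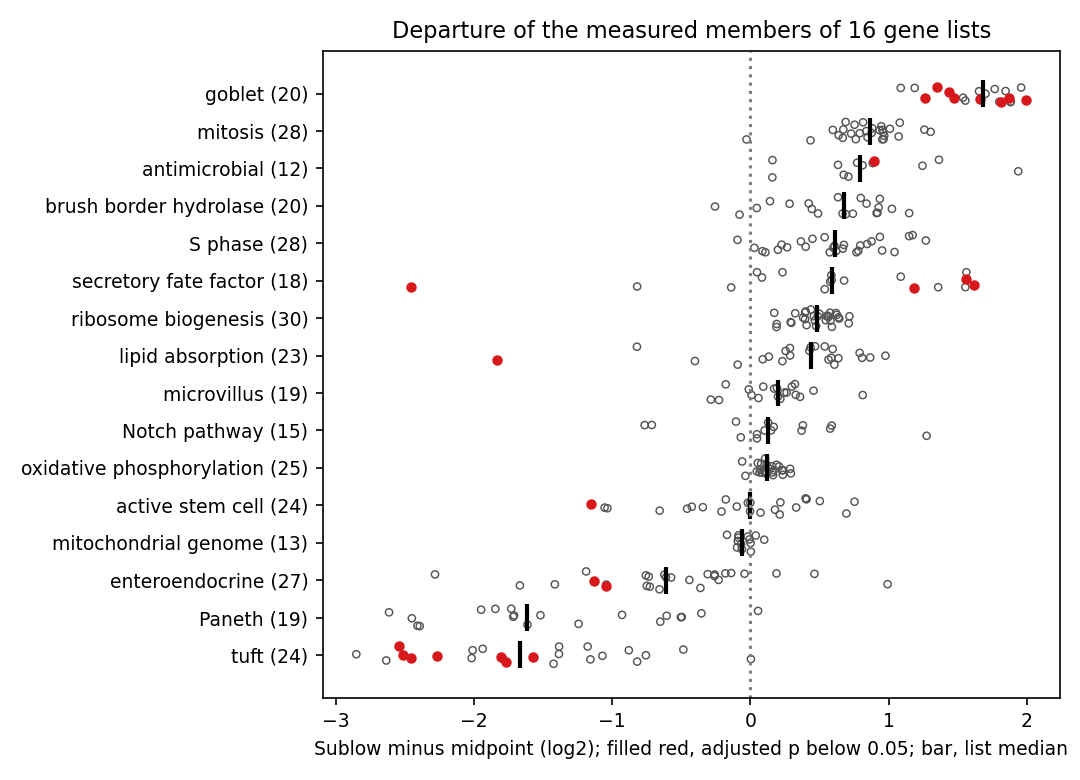
Log2 departure of Sublow from the midpoint (horizontal axis) for each measured member of 16 gene lists (rows, number of members in brackets); filled red points passed at an adjusted p below 0.05 and bars are list medians. The goblet median is at 1.68, mitosis at 0.86 and tuft at -1.67, while stem cell genes centre on the midpoint.

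Some genes lay outside both neighbours. Sublow was above both neighbours, with a limma adjusted p below 0.05 against each, for 14 genes (0.0845%) and below both for 36 (0.217%). Without overlap between the 3 Sublow libraries and the 6 of the neighbours, whatever the test, there were 79 genes above (0.477%) and 161 below (0.971%). Among the 14, 10 had enough reads and no overlap for the naming rule: Chst4, Guca2a, Kdelr3, Spats2l, Kcnk6, E2f2, Mlph, Dll1, Smim14 and Galnt7. Of the rest, Scnn1a, the alpha subunit of the epithelial sodium channel, missed the rule because Low B overlapped Sublow. The counts above and below both were 2 without Low C and 34 without Low B, and 8 without Negative B and 73 without Sublow B. When scaled to the same total they were 4 and 18, and in the fit of 9 libraries 7 and 9.

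Chst4, a sulfotransferase that modifies mucin sugars, measured 192, 391 and 187 in Low, 432, 525 and 607 in Sublow and 189, 152 and 173 in Negative. Its excess was 1.10 over Low (limma adjusted p = 0.012) and 1.59 over Negative (limma adjusted p = 0.0034). Guca2a, which encodes the peptide guanylin that regulates intestinal fluid secretion, measured 1476, 2369 and 1370 in Low, 2831, 2982 and 5478 in Sublow and 1039, 1086 and 1771 in Negative. It exceeded Low by 1.09 (limma adjusted p = 0.021) and Negative by 1.51 (limma adjusted p = 0.0061). Both calls were lost without Low A or Low C (largest adjusted p 0.058 for Chst4 and 0.084 for Guca2a), and that of Guca2a also with same-total or quantile scaling.

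Dll1, the Notch ligand that secretory progenitors show to their neighbours, measured 1251, 1239 and 842 in Low, 1470, 1544 and 2105 in Sublow and 1078, 1319 and 1067 in Negative. The excess was small, 0.62 over Low (limma adjusted p = 0.030) and 0.55 over Negative (limma adjusted p = 0.046), and 11 of the 12 fits that left out 1 library lost the call (largest adjusted p 0.17). Of the 15 measured genes of the Notch pathway it was the 1 above both (0.0845% of all genes were), and none passed against the midpoint in the reported fit. The list's median departure was 0.13 (0.26, -0.14 and 0.60 in Sublow A, B and C). Notch1, the receptor, lay near the midpoint (-0.10 ± 0.30), as did Hes1, the main Notch target of crypt cells (0.10 ± 0.28). Kdelr3, a receptor that returns proteins to the endoplasmic reticulum, Galnt7, a mucin-type glycosyltransferase, and Mlph, a linker of vesicles to the cytoskeleton, exceeded the nearer neighbour by 0.91, 0.48 and 0.62. Kcnk6, a potassium channel, exceeded Low by 0.79 (limma adjusted p = 0.039) and Negative by 2.01 (limma adjusted p = 0.0010). Over these 10 genes the number of the 12 fits that lost the call ran from 2 (Chst4 and Guca2a) to 11 (Dll1).

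Below both neighbours the naming rule left 8 genes: Pnliprp2, Chn2, Ppp1r14c, Cep170, Pdzrn3, Nfat5, Calcoco1 and Ngef. Pnliprp2, a lipase of the pancreatic family, measured 145, 217 and 349 in Low, 77.6, 102 and 108 in Sublow and 283, 652 and 780 in Negative. It is a member of the lipid absorption list, whose median lay above the midpoint, and it was 1.22 below Low (limma adjusted p = 0.034) and 2.45 below Negative (limma adjusted p = 0.0024). Ppp1r14c, an inhibitor of protein phosphatase, measured 325, 235 and 254 in Low, 38.8, 33.5 and 42.2 in Sublow and 67.6, 73.8 and 45.6 in Negative. It lay 2.79 below Low and 0.67 below Negative (limma adjusted p = 0.030), and its mean in Sox9 High was 2025. Cep170, a centrosomal protein, and Pdzrn3, a ubiquitin ligase, had the same order, with Sublow 0.66 and 0.59 below Negative.

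The other four had like levels in Low and Negative and a dip in Sublow. Nfat5, a transcription factor of the osmotic stress response, measured 3112, 2958 and 3891 in Low, 2349, 2711 and 2051 in Sublow and 2909, 3763 and 3252 in Negative, 0.48 below each neighbour (limma adjusted p = 0.044 and 0.042). Calcoco1, an autophagy receptor, measured 306, 330 and 289 in Low, 209, 235 and 222 in Sublow and 318, 397 and 332 in Negative. Chn2, a Rac-regulating protein, and Ngef, a guanine nucleotide exchange factor, were 0.72 and 0.43 below the nearer neighbour. Of the 8 genes, Cep170 and Calcoco1 lost the call in 3 of the 12 fits and Pdzrn3 in 11. Of the 36 genes below both, 9 were also called with same-total scaling and 5 in the fit of 9 libraries.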

How the data were processed

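Gene expression was measured by single-end RNA sequencing of 12 libraries, 3 per population sorted on the Sox9-GFP signal, of which the 9 of Low, Sublow and Negative enter the comparison. Per the labels' protocols, total RNA of 12000 cells was depleted of ribosomal RNA and made into libraries with a Clontech SMARTer kit for picogram amounts of total RNA. The authors deposited 1 table of a signal per gene and library that is a normalised read count: dividing each column by 1 step gave whole reads for 100% of its values (tolerance 0.01). Which aligner, genome build, annotation and scaling program the authors used is not given in the sources used here. Depth is the number of steps, 11.6 to 17.0 M reads per library, and a count of 3 reads equals 2.38 to 4.61 normalised units.

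The test kept the 16577 of 30265 genes that reached a value of 10 in 3 or more of the 12 libraries. Log2(value + 1) was fitted with limma 3.58.1 in R 4.3.3 (trend, 12 libraries in 1 fit, prior degrees of freedom 4.10), with the contrast of Sublow minus 0.5 times Low and 0.5 times Negative and Benjamini-Hochberg adjustment over all genes. A fold change on this scale understates that of genes with few reads. A gene was above or below both when each of the 2 differences passed at an adjusted p below 0.05. On simulated counts with the depths of these libraries, the fit of 16164 genes recovered 76% of 100 genes changed by 1 log2 unit and 96% of 100 changed by 2, with 7 false calls. The changed genes were drawn from those with a mean of at least 100. Counts were drawn independently, with 1 spread per gene for all populations. The wider spread of the real Sublow libraries and their shifts across many genes were not simulated, so these rates need not hold for them.

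The text names Sox9, the 10 largest departures each way among called genes with a mean of at least 100 in the 9 libraries and all 3 Sublow libraries on that side, up to 10 genes each above and below both without overlap, and 5 even-step genes each way. Predicted genes and ribosomal and small RNAs were skipped. Members of the 34 gene lists, and a few other called genes, were named after their values were seen. The comparison and the lists were chosen with earlier results of these data known, so the lists are described without a test. Alternatives included edgeR 4.0.16 (quasi-likelihood) and DESeq2 1.42.0 on the recovered reads, which called 151 and 429 genes. Motif searches and figures used Python 3.11.15, pandas 2.3.3 and matplotlib 3.10.9. The replicate letters A to C are shared by the populations, but the labels do not say what they stand for. Deviations of same-letter libraries correlated at 0.0521 to 0.341 over 18 pairs. Not every pair passed 0.1, and the letters were left out of the reported fit, although 12 of 12 libraries correlated best with their own letter. With the letter as a block, 70 and 111 genes were above and below the midpoint.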

Additional observations from a re-analysis of the deposited data

How the results depend on the processing

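The genes that the naming rule took as called kept their direction in all alternatives in which they were called. Most of the named even-step genes did not keep their direction. Gstk1, Abcc2, Cdr2, Pla2g12b, Als2cr12, Kcnh6, Prox1, Phldb2 and Sox9 lay above the midpoint in the reported fit and below the linear midpoint. Of these only Phldb2 was called there. Its departure was 0.11 in the reported fit, and it was called below the linear midpoint (-1.47, adjusted p = 0.024, limma variance with the delta method). The counts of genes above and below the midpoint, 51 and 84 as reported, were 32 and 66 without the filter, 20 and 65 at the same total, 33 and 96 with quantile scaling, 761 and 1195 with library weights, 87 and 64 with edgeR, 201 and 228 with DESeq2, 3 and 17 in the fit of 9 libraries, and 32 and 333 against the linear midpoint, which shares 26 of the 51 and all 84. The weights gave Sublow A 5.71 against 0.418 for B and 0.215 for C, so that fit rests mostly on Sublow A. The counts above and below both, 14 and 36, were 4 and 18 at the same total, 82 and 352 with library weights, 7 and 9 in the fit of 9 libraries, and 26 above both with DESeq2. With the replicate letter as a block they were 23 and 57, and 70 and 111 genes were above and below the midpoint, with 6 goblet, 11 tuft and 1 mitosis gene (Plk1, limma adjusted p = 0.035) among them; Bcas1, Ano7, Pygl and Creb3l4 were among the calls lost; the labels do not pair the letters, although 12 of 12 libraries correlated best with their own. Leaving out 1 library at a time gave 10 (Low A) to 89 (Low B) genes above the midpoint and 30 (Low A) to 95 (Negative C) below, 2 (Low C) to 34 (Low B) above both and 8 (Negative B) to 73 (Sublow B) below both, 2816 to 3380 genes on an even step and a median position of 0.388 to 0.619. Counts above the midpoint moved by more than 1.5 times without any library other than Negative A and Negative C, and those below without Low A, Low C or any High library. Over all settings other than leaving out a library, 2 of the 51 and 15 of the 84 genes stayed called. The count of genes on an even step lay between 3139 and 3943 in the other limma fits; edgeR and DESeq2 gave no such count. Cause was not tested for any of these changes. Departures under 1 log2 unit were not simulated.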

Other observations

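Further gene groups departed little or unevenly. Of 22 genes of sterol synthesis, 21 lay above the midpoint, 15 of them in all 3 Sublow libraries, where 14.2% of all genes did. None passed in the limma fit, and the median departure was 0.34. The member below the midpoint was Tm7sf2, a sterol reductase, at -0.08. Unlike most groups above, this list hardly differed between Low and Negative, by a median of 0.15 on the log2 scale. The list medians were 0.44, 0.33 and 0.26 in Sublow A, B and C.

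Targets of Wnt signalling were divided. Of 16 measured members, 11 lay below the midpoint, with a median of -0.17 (-0.15, -0.42 and 0.42 in Sublow A, B and C). The feedback inhibitor Nkd1 stood at -1.15 and the receptor-removing ligase Rnf43 at -0.34, while Myc and Ccnd1, which promote growth and division, stood at 0.96 and 0.85. Myc measured 1126, 1083 and 1613 in Low, 470, 339 and 1463 in Sublow and 137, 29.2 and 120 in Negative, so Sublow C was within the range of Low and the other two were not. Neither Myc nor Ccnd1 passed (limma adjusted p = 0.53 and 0.52). Immediate early genes had a median departure of 0.08 and interferon and MHC class I genes one of 0.13, with none called in either list. In both, the Sublow libraries lay on different sides of the midpoint, at -0.51, 0.34 and 0.64 and at 0.26, 0.64 and -0.63 in A, B and C.

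Transcriptional regulators below the midpoint included Runx1, which measured 724, 579 and 556 in Low, 81.7, 45.8 and 70.3 in Sublow and 42.2, 33.8 and 34.2 in Negative. Its departure of -1.23 ± 0.18 (adjusted p = 0.012, limma) and that of the corepressor Tle2 (-1.21, limma adjusted p = 0.0098) passed in all 12 fits that left out 1 library. Map2, a microtubule-associated protein of neurons, stood at -1.89 (limma adjusted p = 0.0097), with Sublow at the Negative level. The 3 genes were chosen after their values were seen. None passed in the fit of 9 libraries (limma adjusted p = 0.084, 0.10 and 0.073 for Runx1, Tle2 and Map2).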
